A study of Mus musculus with 4 samples.

Results

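Genes that direct or mark the fat, bone, cartilage and tendon lineages, 10 in all, were followed in mouse C2C12 cells that differentiated with or without myostatin. They were Pparg, Cebpa, Cebpb, Cebpd, Runx2, Sp7, Sox9, Sox6, Scx and Dmp1, chosen by the gene name printed beside each non-control probe of the arrays. These 10, of 27597 genes and unnamed features on the array, had 21 of its 41174 probes. C2C12 is an established mouse myoblast line that fuses into myotubes when serum is lowered. RNA came from cells after 6 days of differentiation in 20 nM GDF8 (recombinant mouse myostatin, added every 24 h) and from untreated cells after the same 6 days. Each of 4 two-colour Agilent arrays held 1 GDF8 and 1 untreated RNA, and the labels number them as biological replicates 1 to 4. They do not say whether the cultures were separate. The p-values below therefore measure the spread between these samples, which may be technical. For the share of horse serum during differentiation the labels give more than 1 value. GDF8 was in Cy3 on replicates 1 and 4 and in Cy5 on replicates 2 and 3.

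Myostatin is a ligand of the TGF-beta family that signals through Smad2 and Smad3 and restrains muscle growth. Mesenchymal progenitors choose between muscle, fat, bone, cartilage and tendon under lineage transcription factors, and C2C12 cells are known for leaving the muscle path for the bone path when given bone morphogenetic proteins. Pparg, with Cebpa, Cebpb and Cebpd, drives fat cell formation. Runx2 and Sp7 drive bone formation, Sox9 and Sox6 cartilage, and Scx tendon. Dmp1 is not a transcription factor but an acidic matrix protein of osteocytes and dentine, on the list as a bone gene.

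Dmp1 fell in GDF8 cells, and no other probe of the 10 genes passed the test. The transcript ratio of Dmp1 was 1.55-fold lower (log2 ratio of GDF8 over untreated -0.63 ± 0.10, SE from limma, n = 4 arrays). Of the 21 probes, 16 probes of 9 genes were bright enough to be tested, and 12 of the 16 were never saturated. The only Scx probe and 1 Cebpb probe were saturated in a whole group. They stay in the counts and the median below but are given no fold. Of these 16, 1 was lower, where 1.95% of all 26861 tested probes were lower, and 0 were higher, where 0.774% of all tested probes were higher. The call is limma's, with a Benjamini-Hochberg adjusted p under 0.05. At an unadjusted p under 0.05, 1 member probe was higher (Runx2) and 1 was lower (Dmp1), and the methods' t-test (unpaired) called 0 of the 16 after adjustment. The median log2 ratio was 0.08 over the 16 probes and 0.01 over all tested probes. The saturated Scx probe shares the middle place of the 16, so their median is not read as a change. Counted without a model, 2 of the 16 probes were lower on all 4 arrays, against 7.82% of all tested probes. On all 4 arrays 0 were higher, against 7.61%.

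**Figure D1:**
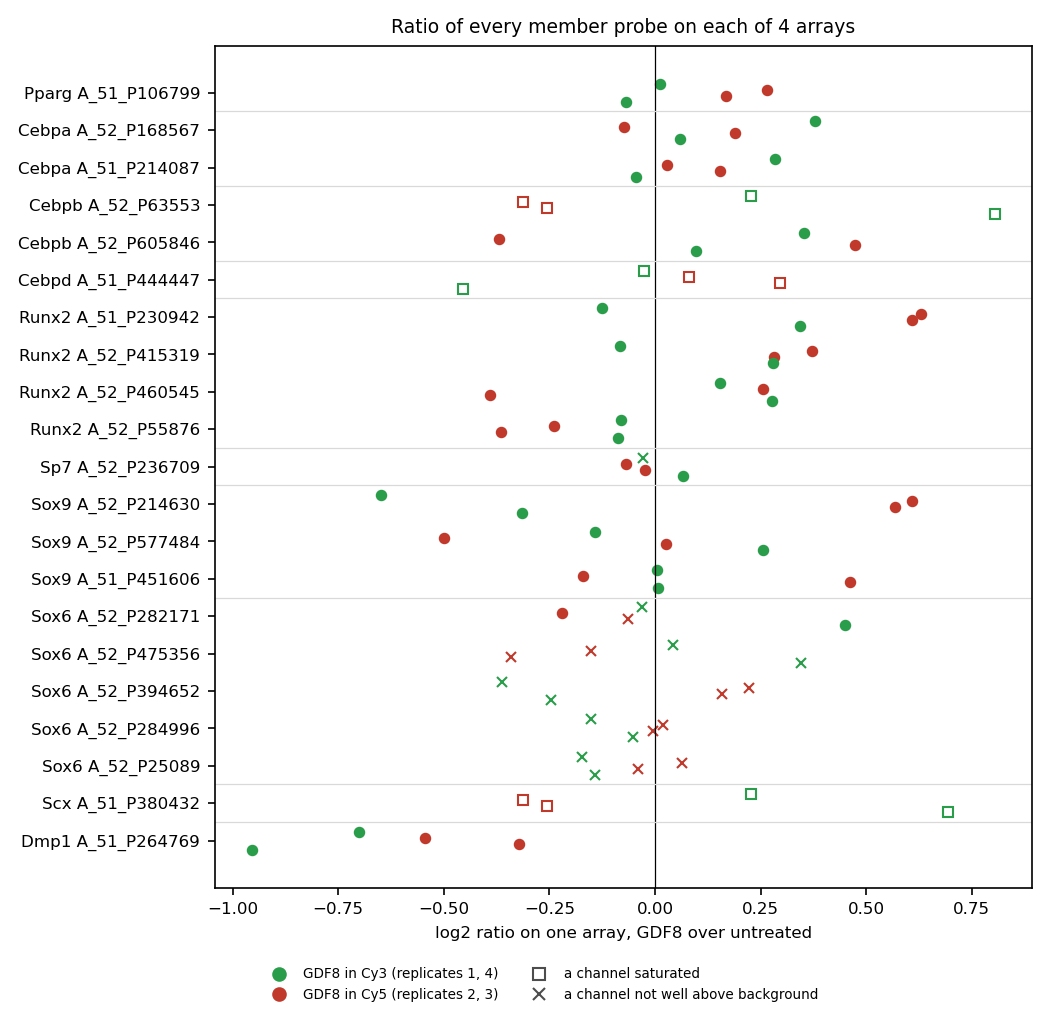
Log2 ratio of GDF8 over untreated cells on each of the 4 arrays for the 21 probes of the 10 genes, with points coloured by the dye that held GDF8. Squares mark arrays where a channel was saturated and crosses arrays where a channel was not well above background. The 4 points of Dmp1 lie between -0.95 and -0.32, and the points of 1 Sox9 probe split by dye.

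Upstream sequence was at hand for 6 of the 10 genes. It is shown for Dmp1, the gene that passed the test. RefSeq (GRCm38.p6) lists a pair of Dmp1 start sites on the plus strand of chromosome 5. The 250 bases before each are printed 5′ to 3′, the upstream one at chr5:104197325-104197574 and the downstream one at chr5:104202367-104202616. Capitals mark E-boxes, the general CANNTG motif of bHLH factors, muscle ones such as MyoD and myogenin among them. The search did not separate E-boxes by their middle letters, so the matches are not sites of muscle factors in particular.
Dmp1 upstream start site: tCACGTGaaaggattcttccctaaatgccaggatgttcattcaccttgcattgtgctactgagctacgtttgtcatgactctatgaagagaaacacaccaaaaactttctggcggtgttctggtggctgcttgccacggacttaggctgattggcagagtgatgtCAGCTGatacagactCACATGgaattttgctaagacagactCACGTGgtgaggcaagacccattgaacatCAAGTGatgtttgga
Dmp1 downstream start site: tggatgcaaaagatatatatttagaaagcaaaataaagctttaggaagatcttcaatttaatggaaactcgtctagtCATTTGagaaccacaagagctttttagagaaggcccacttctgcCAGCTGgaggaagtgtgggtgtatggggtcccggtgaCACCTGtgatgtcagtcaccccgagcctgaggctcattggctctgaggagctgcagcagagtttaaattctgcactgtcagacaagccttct

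The upstream window held 5 E-boxes and the downstream one 3. Of 32851 RefSeq promoter windows of the same length, 1.154% held at least 5, 12.21% at least 3 and 66.22% at least 1. An E-box reads CANNTG on both strands. The Runx motif, searched as TGTGGT or ACCACA, had 0 matches in the upstream window and 1 in the downstream one, and 14.05% of all windows held it. The Smad motif, searched as CAGAC or GTCTG, had 2 matches upstream and 1 downstream, and 42.19% of all windows held it. No match of a motif overlapped another in either window. These are counts of letters and say nothing of whether a factor was bound.

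Dmp1 was read by 1 probe (A_51_P264769), well above background in both channels of every array and never saturated. Its normalised log2 signal was 10.97, 10.66, 10.66 and 10.52 in GDF8 cells of replicates 1 to 4, against 11.67, 11.20, 10.98 and 11.47 in untreated cells. All 4 GDF8 signals lay below all 4 untreated signals, which held for 3.39% of all tested probes and, among the members, for Dmp1 alone. No member had all GDF8 signals above all untreated signals, which held for 1.98% of tested probes. The log2 ratios on the arrays were -0.70, -0.54, -0.32 and -0.95, deepest on replicate 4. The 95% interval of the fitted ratio ran from -0.86 to -0.40, and limma's adjusted p was 0.0231. The call did not hold in every fit: the adjusted p was 0.142 without replicate 2, 0.0872 without replicate 4, 0.0631 without a dye term and 0.341 in the methods' t-test. With single-channel values that are not paired by array it was 0.146. Over the alternatives the ratio stayed between -0.69 and -0.57. Dmp1's unadjusted p in the methods' t-test was 0.0129, and its 1.55-fold change is below the 1.6-fold that the methods required.

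The transcripts whose 4 array ratios lay closest to those of Dmp1, by mean absolute difference over the 4 arrays, were Reep1, Prkag3 and Calr4. Reep1 encodes a protein that shapes the endoplasmic reticulum. It differed from Dmp1 by 0.034 on average, with a fitted ratio of -0.60 ± 0.10. Prkag3, a regulatory subunit of AMP-activated kinase in muscle, differed by 0.037 (-0.64 ± 0.11). Calr4, of the calreticulin family, differed by 0.041 (-0.66 ± 0.10). The 3 were picked from all named, tested probes, so their closeness is a description.

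Cultures were measured in bulk, so fewer cells of a type and less RNA per cell cannot be told apart. Myotube markers moved with Dmp1: 7 of 18 were lower, where 2.31% of the 17592 genes and unnamed features were lower by their brightest probe. Of the 18, 11 were saturated in some channel. The summed signal of the 7 markers that were never saturated ran from 62952 to 93474 in GDF8 cells and from 130283 to 187547 in untreated cells, without overlap. These are the same 7 markers that were called lower, so the sum describes the calls again and is no separate support. The part of myotubes in the Dmp1 result was not tested.

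**Figure D2:**
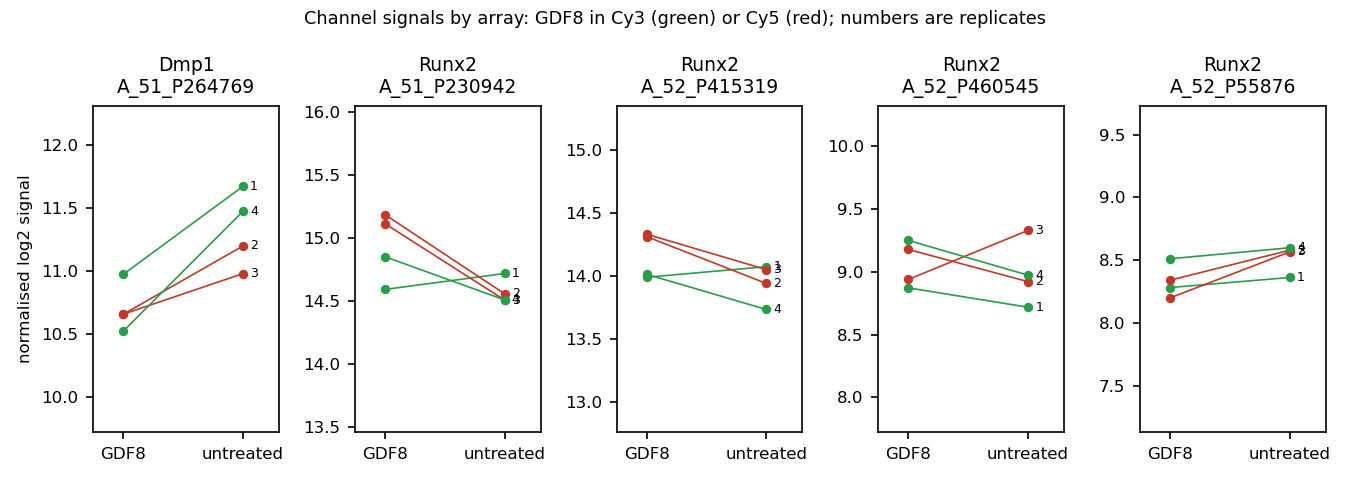
Normalised log2 signal of the Dmp1 probe and the 4 Runx2 probes in GDF8 cells (left of each panel) and untreated cells (right), with 1 line per array numbered by replicate. Every panel spans the same range of log2 units around its own centre. All 4 Dmp1 lines climb toward untreated cells, while 3 of the 4 Runx2 panels hold lines in both directions.

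Runx2, the factor that starts the osteoblast program, had 4 probes that did not move alike. The probe A_51_P230942, printed in 10 spots, had log2 signals of 14.59, 15.19, 15.11 and 14.85 in GDF8 cells of replicates 1 to 4, against 14.72, 14.56, 14.51 and 14.51 in untreated cells. GDF8 was above untreated on replicates 2, 3 and 4 and below it on replicate 1. Its log2 ratios were -0.13, 0.63, 0.61 and 0.34, with a fitted value of 0.36 ± 0.11 and a 95% interval from 0.11 to 0.62. The unadjusted p was 0.0117 and limma's adjusted p 0.190, so the probe did not pass. Over the alternatives its lowest adjusted p was 0.0872, without replicate 1, where the ratio was 0.48.

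The other Runx2 probes went both ways. A_52_P415319 had log2 ratios of -0.08, 0.37, 0.28 and 0.28, again below 0 on replicate 1 alone, and a fitted 0.21 ± 0.10 (limma's adjusted p = 0.492). A_52_P460545 had 0.15, 0.26, -0.39 and 0.28 (fitted 0.07 ± 0.12). A_52_P55876 had -0.08, -0.24, -0.37 and -0.09, below 0 on every array, and a fitted -0.19 ± 0.09 (limma's adjusted p = 0.475). Its interval, from -0.40 to 0.02, lies below that of A_51_P230942, and the difference between the probes was not tested. All 4 probes carry the same RefSeq accession in the array's annotation, so the files do not say which transcript forms they separate.

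Sp7 (osterix), which acts after Runx2 in osteoblasts, was faint. Its probe A_52_P236709 was well above background on 3 of 4 arrays in GDF8 cells and on 4 of 4 in untreated cells. Log2 signals were 7.86, 8.19, 8.18 and 8.24 in GDF8 cells, against 7.88, 8.26, 8.21 and 8.17 in untreated cells. The ratios, -0.03, -0.07, -0.02 and 0.07, gave a fitted -0.01 ± 0.09, with a 95% interval from -0.22 to 0.20. The sign of this value turns with median centring in place of loess (0.017) and in the fit of the authors' deposited table (0.040).

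The probes of Pparg, Runx2 and Sox9 that were printed in 10 spots show how far spots of 1 array differ. The SD of the log2 ratio over spots was 0.041 to 0.106 for Pparg and 0.052 to 0.099 for Sox9. For Runx2 it was 0.082, 0.054 and 0.044 on replicates 2 to 4, but 0.233 on replicate 1, where the spots ran from -0.37 to 0.25. Replicate 1 also had the most non-control spots flagged as outliers, 604 against 75, 84 and 40 on replicates 2 to 4. Between arrays the SD of the mean ratio was 0.15 for Pparg, 0.35 for Runx2 and 0.63 for Sox9, above the SD over spots on every array. These SDs between arrays still hold the dye effect, which the fit takes out. The dye terms, red over green, were 0.12 for Pparg, 0.26 for Runx2 and 0.54 for Sox9.

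**Figure D3:**
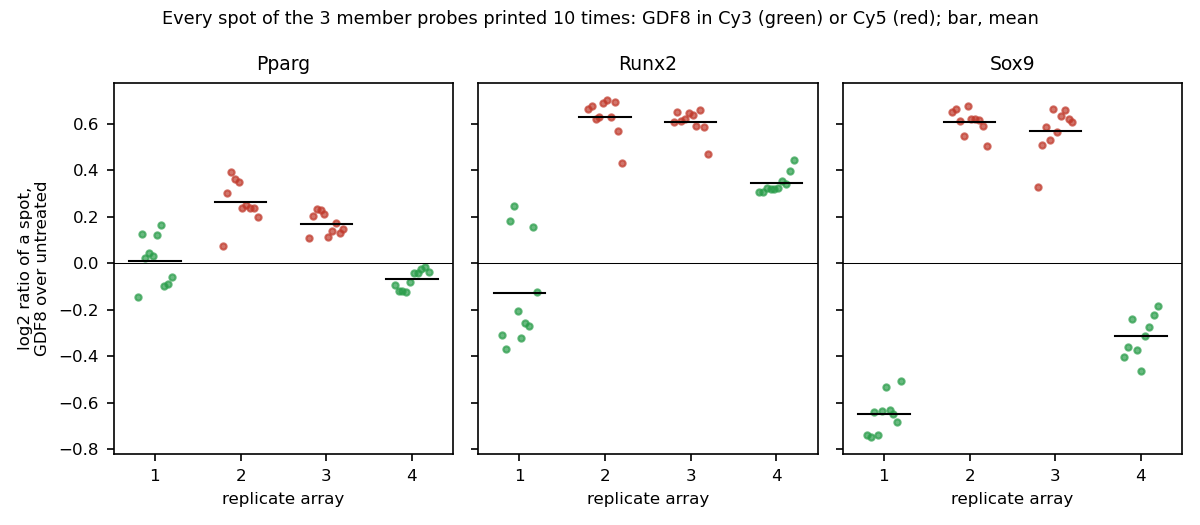
Log2 ratio of GDF8 over untreated cells in every spot of the Pparg, Runx2 and Sox9 probes that are printed 10 times, by replicate array, with bars at the mean. Runx2 spots scatter on replicate 1 alone, and Sox9 spots lie above 0 where GDF8 was in Cy5 and below 0 where it was in Cy3.

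Pparg, the nuclear receptor at the head of fat cell formation, had the probe A_51_P106799. Its log2 signals were 14.27, 14.59, 14.31 and 14.44 in GDF8 cells, against 14.26, 14.33, 14.14 and 14.51 in untreated cells. The groups overlapped. Ratios of 0.01, 0.26, 0.17 and -0.07 gave a fitted 0.09 ± 0.09 (limma's adjusted p = 0.842). The 95% interval ran from -0.12 to 0.31, so a rise or a fall within it is compatible with the 4 arrays. The interval is not a limit of detection.

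Cebpa, which works with Pparg in the late phase of fat cell formation, had a pair of probes. A_52_P168567 had ratios of 0.38, -0.07, 0.19 and 0.06 (fitted 0.14 ± 0.10), and A_51_P214087 had 0.28, 0.03, 0.15 and -0.04 (fitted 0.11 ± 0.10). Both were highest on replicate 1, and neither passed. The 95% intervals ran from -0.11 to 0.38 and from -0.13 to 0.34.

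Cebpb and Cebpd act early in fat cell formation, ahead of Cebpa. The Cebpb probe A_52_P605846 had ratios of 0.35, -0.37, 0.47 and 0.10, the widest spread of the unsaturated fat probes (SD over arrays 0.37), with a fitted 0.14 ± 0.15 and a 95% interval from -0.21 to 0.48. The brighter Cebpb probe, A_52_P63553, was saturated in both groups on every array, and no fold is given. The Cebpd probe A_51_P444447 was saturated in whichever RNA was in Cy5, which were 2 GDF8 and 2 untreated RNAs. Its ratios were -0.03, 0.08, 0.30 and -0.45 (fitted -0.03 ± 0.11), and the saturated channel limits each of them.

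Sox9, the factor that opens cartilage formation, had 3 probes. The one printed in 10 spots, A_52_P214630, had log2 signals of 14.73, 15.14, 15.31 and 14.82 in GDF8 cells, against 15.38, 14.53, 14.75 and 15.13 in untreated cells. The channel labelled with Cy5 was the higher on every array. The ratios of GDF8 over untreated were -0.65, 0.61, 0.57 and -0.31, so their sign followed the dye. The dye term, red over green, was 0.54, and with it in the fit the ratio was 0.05 ± 0.10. Some of its spots were saturated in Cy5 on replicates 1, 2 and 3 (4, 1 and 2 spots).

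The other Sox9 probes did not follow the dye. A_52_P577484 had ratios of -0.14, -0.50, 0.03 and 0.26 (fitted -0.09 ± 0.12), and A_51_P451606 had 0.00, -0.17, 0.46 and 0.01 (fitted 0.08 ± 0.12). No Sox9 probe passed, and the 3 intervals lie between -0.38 and 0.36. Leaving out 1 array turned the sign of each of the 3 values.

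Sox6, a partner of Sox9 in cartilage that in mouse muscle represses slow-fibre genes, had 5 probes and none could be tested. Of these, 4 were not well above background on any array in either group. The fifth, A_52_P282171, was well above background on 3 of 4 arrays in GDF8 cells and on 3 of 4 in untreated cells. Its log2 signals were 7.75, 7.44, 7.58 and 7.95 in GDF8 cells, against 7.78, 7.66, 7.65 and 7.50 in untreated cells, and its ratios were -0.03, -0.22, -0.06 and 0.45. The array gives no usable Sox6 value in either group.

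Scx (scleraxis), the factor of tendon progenitors, had 1 probe, A_51_P380432. It was saturated on 3 of 4 arrays in GDF8 cells and on 4 of 4 in untreated cells. Its ratios were 0.23, -0.31, -0.26 and 0.69, the last from the array whose GDF8 channel was not saturated. On replicates 1 to 4, the probes saturated in both channels (2064, 1559, 1831 and 257 of them) had median ratios of 0.23, -0.31, -0.26 and 0.81. The saturated Cebpb probe gave 0.23, -0.31, -0.26 and 0.80. The Cebpb probe on all 4 arrays, and the Scx probe on replicates 1 to 3, thus had the ratio common to saturated probes, which carries no reading of the transcript. On replicate 4 the Scx ratio was below that of saturated probes, and its untreated channel was still saturated. No fold is given for either probe.

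**Figure D4:**
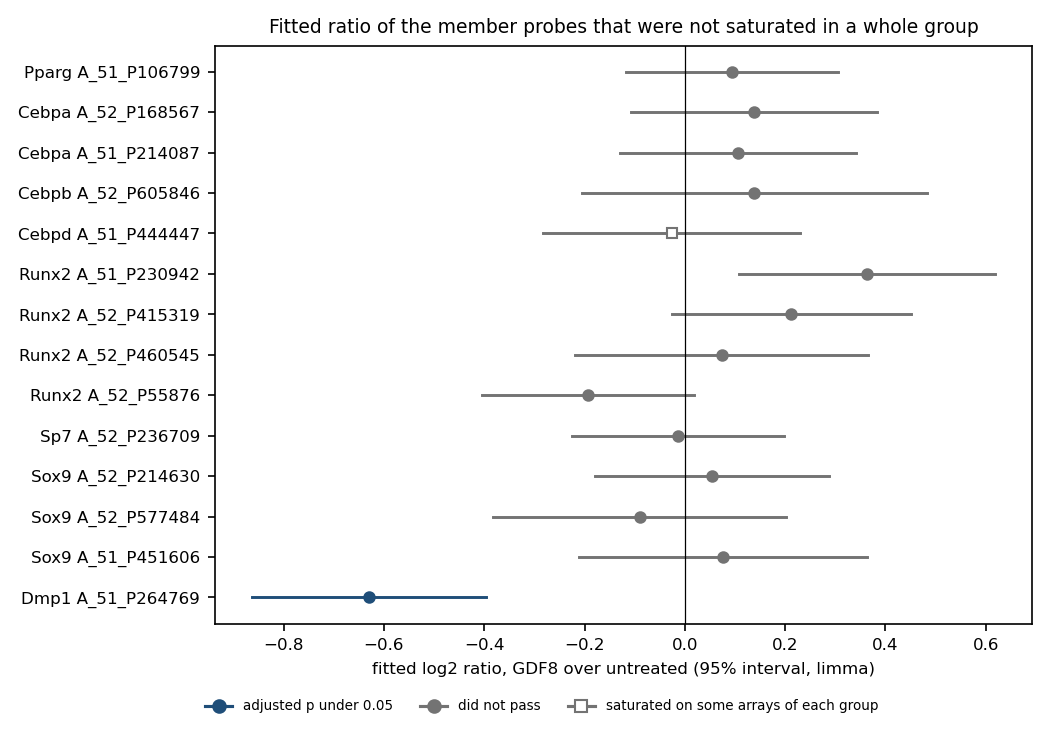
Fitted log2 ratio of GDF8 over untreated cells with its 95% interval from limma for the tested member probes, without the Cebpb and Scx probes that were saturated in a whole group. Dmp1 alone passed the adjusted test. The interval of A_51_P230942 (Runx2) lies above 0, but its adjusted p was 0.190.

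The partners and targets of the fat regulators were then read by the brightest probe of each gene, on lists chosen with earlier results of these data known. By that choice 0.875% of all genes were higher, 2.31% were lower, and the median log2 ratio was 0.01. Saturated probes stay in the list medians below. In every list but the adipocyte and Sox lists such a probe holds or shares the middle place. A median set in this way is not read as a transcript change. Of 5 tested PPAR and RXR receptors, 1 was lower and 0 higher, with a list median of 0.00. It was Rxrg, the RXR isoform of muscle and brain, with ratios of -1.01, -1.28, -0.92 and -1.11, a fitted -1.08 ± 0.10 and a limma adjusted p of 0.00687. Rxrg was 2.11-fold lower. It was well above background on 3 of 4 arrays in GDF8 cells, so it was tested through the untreated group, where it is higher, and 0 receptors were lower when both groups had to be above background, a setting in which Rxrg was not tested.

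Of 6 tested C/EBP genes, 3 of them saturated in some channel, 0 passed in either direction (list median 0.13), and limma gave 0 at an unadjusted p under 0.05, as did the methods' t-test after adjustment. The smallest p-values belonged to Cebpg (0.18 ± 0.10), Ddit3 (0.34 ± 0.21) and Cebpa. Of 21 tested co-regulators of fat cell formation, 0 passed (list median 0.03), with 2 higher and 1 lower in limma at an unadjusted p under 0.05 and 0 in the methods' t-test. Zfp423, which commits cells to the fat lineage, gave 0.44 ± 0.11 (limma's adjusted p = 0.103), Klf5 -0.31 ± 0.10 and Bhlhe40 0.22 ± 0.09.

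Of 19 tested adipocyte genes downstream of Pparg and C/EBP alpha, 4 were lower and 0 higher (list median -0.07). Slc2a4, the insulin-regulated glucose transporter, was 2.28-fold lower (-1.19 ± 0.13), and Cd36, a fatty acid transporter, was 2.08-fold lower (-1.06 ± 0.11). Gpd1, which makes glycerol phosphate, and Lpl, the lipase at the vessel wall, were 1.65-fold and 1.64-fold lower (-0.72 ± 0.09 and -0.71 ± 0.11). All 4 are also expressed in skeletal muscle, and the part of the falling myotube markers in these counts was not tested. Gpd1 did not pass without replicate 2 (limma's adjusted p = 0.0720), nor Lpl without replicate 2, 3 or 4 (limma's adjusted p = 0.0776, 0.0741 and 0.0741). In the methods' t-test Slc2a4 alone of the 4 passed. Of 7 defining markers of fat cells, 6 (Adipoq, Plin1, Cidec, Cfd, Lep and Retn) were too near background to be tested, and Fabp4 gave -0.06 with a limma adjusted p of 0.909.

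Among 18 tested Runx genes, Cbfb and other osteoblast regulators, 0 passed in either direction and the list median was 0.09. At an unadjusted p under 0.05 limma had 3 higher and 0 lower, and the methods' t-test called 0. Lef1, a nuclear partner of beta-catenin, gave 0.59 ± 0.14 (limma's adjusted p = 0.0898), and Dlx3, a homeobox factor of bone, 0.23 ± 0.09. Lef1 passed with median centring (limma's adjusted p = 0.0236) and without replicate 1 (limma's adjusted p = 0.0348).

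Of 19 tested osteoblast and osteocyte genes, 3 were lower and 0 higher, with a list median of 0.01. Beside Dmp1 these were Phex, an osteocyte endopeptidase of phosphate control, and Mmp13, a collagenase. Phex had ratios of -0.94, -1.03, -0.69 and -1.52 and was 2.06-fold lower (-1.04 ± 0.13, limma's adjusted p = 0.0119). Phex passed whichever array was left out, and without replicate 2 or 4 it was the 1 bone gene that did. Mmp13 was lower (-0.77 ± 0.14, limma's adjusted p = 0.0358) but well above background on only 2 of 4 arrays in GDF8 cells. It too was tested through the untreated group, where it is higher, and its ratio is inexact. Without replicate 2, 3 or 4 its adjusted p was 0.130, 0.0523 and 0.0794. The osteocalcin genes Bglap and Bglap3, near-identical copies named after their values were seen, gave -0.47 and -0.50 (limma's adjusted p = 0.0679 and 0.0508). Of 6 defining markers of osteoblasts and osteocytes, Ibsp and Alpl could not be tested, 1 (Phex) was lower, and Bglap, Sost and Mepe did not pass. The summed signal of the 12 bone genes that were never saturated ran from 52642 to 68465 in GDF8 cells and from 73260 to 93511 in untreated cells, lower in GDF8 cells on all 4 arrays. Such a sum follows its brightest probes, among them Phex and the near-identical Bglap and Bglap3, and is no separate support for the calls. Of the 12 genes, 7 had a fitted ratio below 0, 3 of them past the threshold, and 5 had one above 0. In the other lists, apart from the myotube one, the summed signals of the groups overlapped. The adipocyte and slow-fibre sums were also lower in GDF8 cells on all 4 arrays, and the C/EBP sum on 0.

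Among 11 tested Sox genes 1 was higher and 0 lower, with a list median of 0.14. Sox8, a close relative of Sox9, was 1.43-fold higher (0.51 ± 0.10, limma's adjusted p = 0.0470), while its other probe gave 0.30 ± 0.10 (limma's adjusted p = 0.254). The Sox8 call was lost whichever array was left out, with adjusted p-values from 0.0654 to 0.255. Of 14 tested cartilage genes 1 was higher and 0 lower (list median 0.06). Col11a1, a fibrillar collagen chain, had ratios of 0.77, 0.74, 0.52 and 0.65 and was 1.59-fold higher (0.67 ± 0.09, limma's adjusted p = 0.0162), with 0.104 without replicate 2 and 0.0507 without replicate 4. Only 1 of 3 Col11a1 probes was bright enough to be tested. Of 6 defining markers of cartilage cells, Matn1, Hapln1 and Ihh could not be tested, and the other 3 did not pass. Of these, Col2a1 was saturated on 3 of 4 arrays in each group, and Acan gave 0.08. Col10a1 gave -0.42 (limma's adjusted p = 0.0811), but was well above background on only 2 of 4 arrays in GDF8 cells.

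Of 20 tested tendon genes 1 was higher and 1 lower, with a list median of 0.08 and 12 of the 20 saturated in some channel. Tnc, the matrix glycoprotein tenascin C, was 1.45-fold higher (0.53 ± 0.10, limma's adjusted p = 0.0382), and its other probes gave 0.54 ± 0.13 and 0.60 ± 0.17 without passing. Thbs4, a thrombospondin of tendon and muscle, was 1.48-fold lower (-0.57 ± 0.10, limma's adjusted p = 0.0396), but its other probe gave 0.17 ± 0.10. The lower probe was well above background on 3 of 4 arrays in GDF8 cells, so it was tested through the untreated group, where it is higher, and 0 tendon genes were lower when both groups had to be above background. The Tnc and Thbs4 calls were lost whichever array was left out, with adjusted p-values from 0.0511 to 0.229 for Tnc and from 0.0618 to 0.233 for Thbs4. Among the 4 defining tendon markers Kera could not be tested, Thbs4 was the 1 called lower, and Tnmd and Mkx did not pass (0.20 and 0.16).

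Slow-fibre genes known to be repressed by Sox6 in mouse muscle were hard to read, since 8 of the 11 tested were saturated in some channel. Of the 11, 1 was higher and 2 were lower (list median -0.05). Myl2, the slow and cardiac regulatory myosin light chain, had ratios of -2.46, -2.16, -0.94 and -2.46 (fitted -2.01 ± 0.18), with 1 untreated channel saturated. Csrp3, a muscle LIM protein, was 1.58-fold lower (-0.66 ± 0.10), and Prox1, a homeobox factor of slow fibres, was higher (0.59 ± 0.11). Only 1 of 3 Prox1 probes was bright enough to be tested. Csrp3 did not pass without replicate 2 or 4 (limma's adjusted p = 0.116 and 0.0670), nor Prox1 without replicate 1, 2 or 4 (0.0846, 0.236 and 0.127).

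The markers of the muscle cells themselves gave the largest count of the 12 lists. Of 18 tested myotube markers 7 were lower and 0 higher (list median -0.11), with 11 of the 18 saturated in some channel. Actn2, the Z-disc crosslinker, gave -1.39 ± 0.15, Myh2, a fast myosin heavy chain, -1.22 ± 0.16, and Pygm, muscle glycogen phosphorylase, -1.09 ± 0.12. Casq1, the calcium store protein, gave -1.06 ± 0.13, Mef2c, a muscle transcription factor, -0.95 ± 0.11, and Atp2a1, the calcium pump, -0.86 ± 0.09. Ckm, muscle creatine kinase and also a defining marker, was the seventh (-0.93, limma's adjusted p = 0.0423). It did not pass without replicate 1, 2 or 4 (limma's adjusted p = 0.107, 0.0902 and 0.106). All 8 defining markers of myotubes were tested, and 3 of them (Actn2, Mef2c and Ckm) were lower. Myog, Acta1, Myh3, Tnnt3 and Des were saturated on 4 of 4 arrays in untreated cells. They are given no fold, and whether they changed cannot be read. Of 10 tested fibroblast markers, 7 of them saturated in some channel, 0 passed in either direction in limma or the methods' t-test, with 1 lower at an unadjusted p under 0.05 (Lum, -0.46 ± 0.17). Lum was lower with median centring (-0.65, limma's adjusted p = 0.0104) and without replicate 1 (-0.72, limma's adjusted p = 0.0366). Its probe was saturated on 2 of 4 arrays in each group, which limits its ratios of -0.35, -0.22, 0.11 and -1.38. The other fibroblast markers with the smallest p-values were Pdgfra (-0.18 ± 0.14) and Col15a1 (0.16 ± 0.12).

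**Figure D5:**
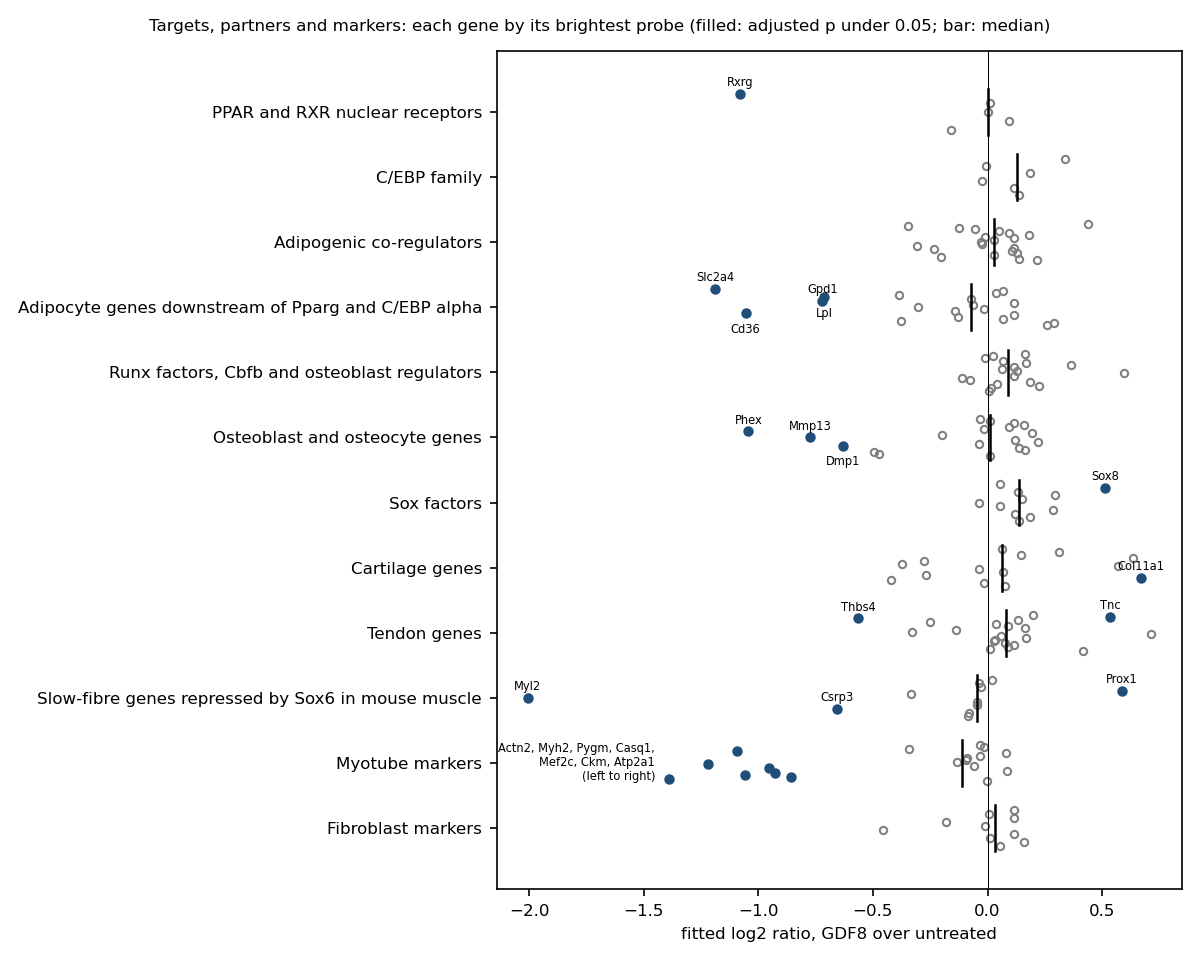
Fitted log2 ratio of GDF8 over untreated cells for the genes of 12 lists, each by its brightest probe, with filled and named points at an adjusted p under 0.05 and a bar at each list's median. All filled points are left of 0 in the adipocyte, bone and myotube lists, and right of 0 in the Sox and cartilage lists. Open points near 0.12 include probes saturated in both groups. Saturated probes hold or share the middle place in every list but the adipocyte and Sox lists.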

How the data were processed

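Expression was measured on 4 two-colour Agilent arrays of C2C12 RNA, GDF8 against untreated cells, each with 45018 spots, 43379 of them not controls. The deposited scanner files give spot intensity for each channel, a log10 ratio of red over green and other flag columns (saturation, outliers, signal well above background). They were written by Agilent Feature Extraction 9.1.1.1 for array design 014868, per the file headers. A value table that the authors deposited is in log2 units. Its values were the log2 ratios of GDF8 over untreated from the processed signals, equal within 0.001 in 100% of the 40929 probes with 1 spot, and were not centred (medians 0.14, -0.09, -0.11 and 0.09). Per the series' design text, the authors filtered on flags in GeneSpring, and the methods' t-test was unpaired, at 0.05, with a fold change above 1.6. The 4 arrays shared 1 slide, so there was no slide batch to test. Batches of culture or labelling were not tested.

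Intensities were corrected with normexp (offset 50) and normalised by loess on each array, with controls at weight 0 and outlier spots left out, in limma 3.58.1 under R 4.3.3. Spots of a probe were averaged. A probe was tested if all 4 GDF8 channels, or all 4 untreated channels, had more than 50% of its spots well above background. Ratios of GDF8 over untreated were fitted with a dye term, each array being its own block. Benjamini-Hochberg adjustment covered 26861 probes, at a threshold of 0.05. Channel signals are after Aquantile normalisation. With 4 arrays, an exact sign-change test reaches a two-sided p of 0.125 at the lowest, so single probes rest on limma's shared variance. A probe saturated in a whole group is given no fold.

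Among non-control spots, 0.745% to 12.1% were saturated in GDF8 channels and 4.11% to 11.1% in untreated channels, and 63.3% to 78.8% were well above background. The small number of arrays limits precision. Names came from RefSeq (GRCm38.p6): 24375 probes by accession, 6301 by symbol and 2426 by synonym, while 8072 kept the file's name.

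The members and lists were chosen with earlier results of these data known. Named are every probe of the 10 genes, up to 6 genes past the threshold of each of 12 lists (or the 3 with the smallest p where none passed), the defining markers, and the 3 probes most like Dmp1. Genes named outside this rule are said to be so. The alternatives were other background corrections, median centring, other filters, no dye term, unpaired single-channel values, the authors' table, the methods' t-test, other treatment of saturated and outlier spots, 1 probe a gene, and leaving out each array.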

Additional observations from a re-analysis of the deposited data

Results flagged for a closer look

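Of 55 ratios searched for an array far from the other 3, 1 stood apart. The Myh2 probe A_52_P552036 had a log2 ratio of GDF8 over untreated of -0.39 on replicate 3, against -1.61, -1.43 and -1.45 on replicates 1, 2 and 4. Chance marks about 1 in 20 such groups. Without replicate 3 its limma adjusted p was 0.00239, against 0.0148 with all 4 arrays. None of the 16 tested probes of the lineage genes stood apart in this way.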

How the results depend on the processing

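Over the alternatives, the fitted ratios kept direction and side of the threshold in 741 comparisons with the main value, no longer passed in 100, newly passed in 6 and changed sign in 15. Counts stayed within 1.5 times the main count in 370 comparisons and left that range in 78. Of all tested probes, 208 were higher and 525 lower, against 87 and 342 without a dye term, 64 and 286 with unpaired single-channel values, 25 and 74 in the methods' t-test, and 135 higher in the authors' deposited table. Leaving out 1 array gave 30 to 159 higher (lowest without replicate 2, then 60 without replicate 4) and 184 to 452 lower (184 and 211 without replicates 2 and 4).

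The Dmp1 ratio was -0.63 without a dye term, with unpaired values and in the methods' t-test, and -0.69 to -0.57 with 1 array left out. The count of member probes that were lower was 0 in the first 3 and 0 to 1 with 1 array left out. Without a replicate block, that is with unpaired single-channel values, Dmp1's ratio was the same -0.63 and its limma adjusted p 0.146. The Sp7 ratio was 0.017 with median centring, 0.040 in the authors' table and -0.037 to 0.0099 with 1 array left out. With 1 array left out, ratios ran from -0.029 to 0.26 and from -0.072 to 0.35 for the Cebpb probes A_52_P63553 and A_52_P605846, from -0.13 to 0.081 for Cebpd, from -0.087 to 0.24 for Runx2 A_52_P460545, and from -0.029 to 0.20 for Scx. The probe A_52_P63553 and the Scx probe were saturated in a whole group, so their ranges are not read as transcript changes. For the Sox9 probes A_52_P214630, A_52_P577484 and A_51_P451606 they ran from -0.030 to 0.14, from -0.22 to 0.041 and from -0.082 to 0.23, for Fabp4 from -0.13 to 0.0067 and for Tnmd from -0.039 to 0.44.

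List counts were small and moved. Without a dye term 0 Sox, 0 tendon and 0 slow-fibre genes were higher, and 1 bone, 0 tendon and 1 slow-fibre genes lower. Unpaired values gave 0 Sox, 0 cartilage, 0 tendon and 0 slow-fibre genes higher, and 1 bone and 1 slow-fibre genes lower. The methods' t-test gave 0 Sox, 0 cartilage, 0 tendon and 0 slow-fibre genes higher, and 1 adipocyte, 0 bone, 0 tendon, 0 slow-fibre and 1 myotube genes lower. The authors' table gave 0 Sox, 0 tendon and 0 slow-fibre genes higher and 1 cartilage gene lower. Median centring gave 1 osteoblast regulator, 3 cartilage and 0 Sox genes higher, and 0 tendon genes and 1 fibroblast gene lower. No background correction gave 0 Sox genes higher and 0 tendon genes lower, no filter 0 Sox and 0 slow-fibre genes higher, and an offset of 10 gave 1 cartilage gene lower. The filter in both channels gave 0 PPAR and RXR and 0 tendon genes lower, and without saturated probes 1 slow-fibre gene was lower. With 1 array left out, genes higher ran from 0 to 1 for osteoblast regulators, 0 to 0 for Sox, 0 to 2 for cartilage, 0 to 1 for tendon and 0 to 1 for slow-fibre genes, and genes lower from 2 to 4 for adipocyte, 1 to 3 for bone, 0 to 0 for tendon, 1 to 2 for slow-fibre and 0 to 1 for fibroblast genes. The causes of these changes were not tested. Of the 25 named genes that passed, 20, 11, 19 and 12 still passed without replicates 1 to 4 and 3 passed the methods' t-test. Saturation limits the Scx and Cebpd probes and 1 of the Cebpb probes, and background limits Sox6.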
